A study of Homo sapiens with 6 samples.

Results

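The last megabase of the human autosomes was examined for H3K9me3 (histone H3 trimethylated at lysine 9) in the established human skin fibroblast line BJ. H3K9me3 peaks were taken as members when their midpoint lay within 1 Mb of an end of chromosomes 1 to 22 in hg38. The short-arm ends of 13, 14, 15, 21 and 22 and the long-arm end of 19 were left out, and parts of the ends 4p, 4q, 8q, 10q and 12q. This left 38 ends (33 whole, 5 in part) with 35.9 Mb of sequence, 1.25% of the autosomes. Of the 23653 peaks of the control guide list 168 were members, of the 14715 peaks of PURPL guide 1 there were 84, and of the 12190 peaks of PURPL guide 2 there were 35.

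CRISPR interference brings a repressor to a gene chosen by a guide RNA. The cells had a control guide (sgCtrl) or 1 of 2 guides to PURPL (sgRNA-PURPL#1, sgRNA-PURPL#2), whose product is a p53-induced long non-coding RNA. All 3 cell lines are BJ, and each gave 1 H3K9me3 library and 1 input library, so differences between lines could not be checked in replicates and carry no p-values. Intervals on shares are 95% Wilson intervals and those on densities are exact Poisson intervals, and both cover counting error only. The repressor, its promoter and the clones behind each line were not given in the sources used here. Expression was not measured in these samples, so fibroblast markers and the level of PURPL were not examined. In a population of cells, fewer cells with the mark and less mark per cell cannot be told apart, and the sequencing depth is unknown.

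Chromosome ends carry tandem telomere repeats, and next to them lie subtelomeres, mosaics of duplicated segments, gene families and unique sequence. H3K9me3 is laid down by methyltransferases such as SUV39H1, SETDB1 and their partners, is bound by HP1 proteins, and marks compacted, transcriptionally silent chromatin. It is known from satellite repeats, from telomeric and subtelomeric repeats, and from the bodies of zinc finger genes.

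Member peaks lay in gene bodies and between genes and hardly ever on promoters. RefSeq promoters (GRCh38.p14, 250 bases before to 50 after a transcription start) were matched for 755 genes of the windows, 945 promoters in all. A single promoter was covered by a control peak (0.106%, interval 0.0187 to 0.597), where the background over all autosomal promoters was 0.145%. With guide 1 and with guide 2, 0 of the 945 were covered, which allows a share of up to 0.317%, taken as 3 counts of the 945 and not as a Wilson limit (backgrounds 0.0801% and 0.0385%). These shares do not set the chromosome ends apart from the other promoters. The covered promoter and, from genes with long control coverage, the promoters of KCNG2 and THAP4 and the outer promoter of TXNL4A are shown to compare their base content. They were chosen after their values were seen. In the first line capitals are bases under the control peak, and in the other 3 lines capitals are CpG dinucleotides. The promoters are LOC107986676 on the plus strand (chr6:170435982-170436281), TXNL4A on the minus strand (chr18:80033887-80034186), KCNG2 on the plus strand (chr18:79797688-79797987) and THAP4 on the minus strand (chr2:241637109-241637408).
LOC107986676: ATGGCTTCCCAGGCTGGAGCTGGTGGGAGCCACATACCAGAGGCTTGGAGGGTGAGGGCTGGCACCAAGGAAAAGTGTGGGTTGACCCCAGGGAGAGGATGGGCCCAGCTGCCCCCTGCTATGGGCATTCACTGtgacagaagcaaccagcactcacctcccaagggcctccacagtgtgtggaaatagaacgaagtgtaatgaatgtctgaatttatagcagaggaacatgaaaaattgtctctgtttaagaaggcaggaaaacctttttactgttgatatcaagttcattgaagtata
TXNL4A: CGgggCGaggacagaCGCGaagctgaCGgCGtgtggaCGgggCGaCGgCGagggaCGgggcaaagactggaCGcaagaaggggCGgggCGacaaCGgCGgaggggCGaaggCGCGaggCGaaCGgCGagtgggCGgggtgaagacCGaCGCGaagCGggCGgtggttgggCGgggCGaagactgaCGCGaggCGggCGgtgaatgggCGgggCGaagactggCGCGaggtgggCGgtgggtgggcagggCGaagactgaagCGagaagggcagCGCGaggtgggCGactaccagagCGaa
KCNG2: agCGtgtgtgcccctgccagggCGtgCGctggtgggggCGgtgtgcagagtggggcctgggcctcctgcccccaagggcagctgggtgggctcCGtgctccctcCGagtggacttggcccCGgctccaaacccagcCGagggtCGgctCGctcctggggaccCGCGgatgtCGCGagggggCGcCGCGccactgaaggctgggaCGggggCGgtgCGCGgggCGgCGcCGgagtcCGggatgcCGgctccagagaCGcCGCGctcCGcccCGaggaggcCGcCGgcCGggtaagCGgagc
THAP4: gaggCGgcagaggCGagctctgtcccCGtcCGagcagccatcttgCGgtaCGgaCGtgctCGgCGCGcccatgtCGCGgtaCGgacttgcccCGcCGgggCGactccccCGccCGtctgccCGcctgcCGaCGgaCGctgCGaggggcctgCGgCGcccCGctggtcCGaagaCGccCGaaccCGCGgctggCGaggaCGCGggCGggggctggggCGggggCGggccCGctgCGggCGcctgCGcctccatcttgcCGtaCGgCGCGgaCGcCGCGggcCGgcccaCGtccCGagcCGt

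The covered promoter belongs to LOC107986676, an uncharacterised locus of the end 6q. It held 1 CpG and was 49.7% G and C, and 134 of its 300 bases lay under the control peak and 0 under either guide. The TXNL4A promoter held 45 CpG (72.3% G and C), the KCNG2 promoter 35 (77.3%) and the THAP4 promoter 52 (79.3%). In these 3 genes the nearest control peak stood 10.4, 10.1 and 48.4 kb from the promoter. The median promoter of the windows held 22 CpG and was 66.7% G and C, against 14 and 58.7% over all autosomal promoters. The telomere repeat unit TTAGGG or its reverse complement CCCTAA was found in 6.56% of the window promoters and in 9.11% of all autosomal promoters, and in none of the 4 shown.

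H3K9me3 covered less of the chromosome ends with each PURPL guide than with the control guide. The length under member peaks was 153.9 kb in the control list, 69.96 kb in that of guide 1 and 26.2 kb in that of guide 2. The guides thus had 45.5% and 17.1% of the control length (total lengths, not the same bases), over 50% and 20.8% of the control number of peaks. The median peak had a width of 605 bp in the control (quartiles 347 and 1038.5 bp), 532 bp for guide 1 and 356 bp for guide 2. Peaks of at least 2 kb numbered 16, 3 and 2. The guide 2 value rests on few places: without the ends 15q and 18p it was 9.83%, and the guide 1 value was 39.9%.

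The reduction was spread over most ends. A control peak was present at 35 of the 38 ends, a guide 1 peak at 32 and a guide 2 peak at 21. Of the 35 control-marked ends, 30 were shorter with both guides, 0 were longer with both, and 5 were longer with guide 1 and shorter with guide 2. Guide 2 had no peak at 14 of the 35, and 3 of them (6q, 12p and 17p) had no peak in either guide. The median end carried 2707 bp under sgCtrl peaks, 903 bp for guide 1 and 251 bp for guide 2. At 4q and 14q no list had a member peak, and 2p had a guide 1 peak alone. The 14q window holds much of the immunoglobulin heavy chain locus, which B cells rearrange.

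**Figure D1:**
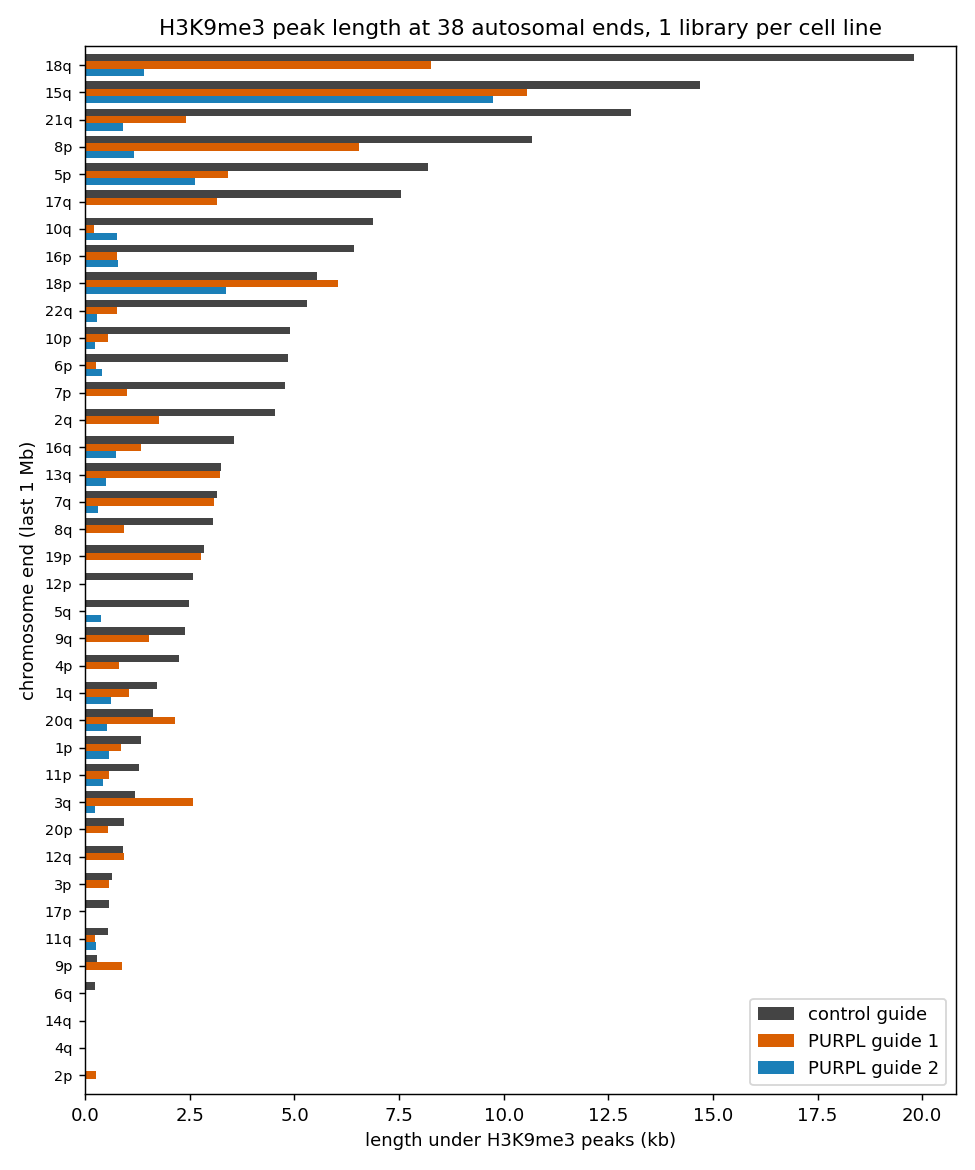
Length under H3K9me3 peaks in kb (horizontal axis) at each of the 38 ends (vertical axis), with 1 bar per cell line and 1 library behind each bar. The control bar is the longest at most ends, and at 18p and 3q the guide 1 bar is longer than the control bar.

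The end of 18q had the longest control coverage. It carried 15 control peaks over 19.8 kb, 11 guide 1 peaks over 8.26 kb and 4 guide 2 peaks over 1.41 kb, so 41.7% and 7.10% of the length was left. The end 15q followed with 14694, 10550 and 9746 bp, then 21q with 13034, 2404 and 894 bp. At 8p the lengths were 10.7, 6.54 and 1.16 kb, and at 5p 8.20, 3.42 and 2.63 kb. These 5 ends held 43.2% of the control length, 44.5% of the guide 1 length and 60.4% of the guide 2 length. Among these 5 ends the guide 1 length ranged from 18.4% of the control length at 21q to 71.8% at 15q.

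In the control and with guide 1, the outermost 100 kb had the lowest coverage of the 10 bins. Within 100 kb of the end there were 7 control peaks, 2 guide 1 peaks and 2 guide 2 peaks, or 1.83, 0.667 and 0.512 kb under peaks per Mb. The bin from 100 to 200 kb had 10, 3 and 2 peaks. The bins carry no intervals, and their full kept length was used whether or not reads could be placed in it. The bin from 200 to 300 kb had the highest coverage of the 10 bins in all 3 lists, with 9.65, 5.76 and 3.03 kb per Mb over 28, 10 and 5 peaks. That rank rests on a domain at 15q and a domain at 8p, without which the bin had 3.53, 1.19 and 0.247 kb per Mb. Beyond 300 kb the control ranged from 2.33 to 5.59 kb per Mb, guide 1 from 1.17 to 2.24 and guide 2 from 0.142 to 1.14. The outermost guide 2 value was within that range. The outermost sequence had a peak in all 3 lists at 5p alone, at chr5:10155-11716, covering 1312 bp in the control and 1562 and 1459 bp in guides 1 and 2. The other peaks within 20 kb of an end were a control peak of 309 bp at 7q and a guide 2 peak of 230 bp at 1q.

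**Figure D2:**
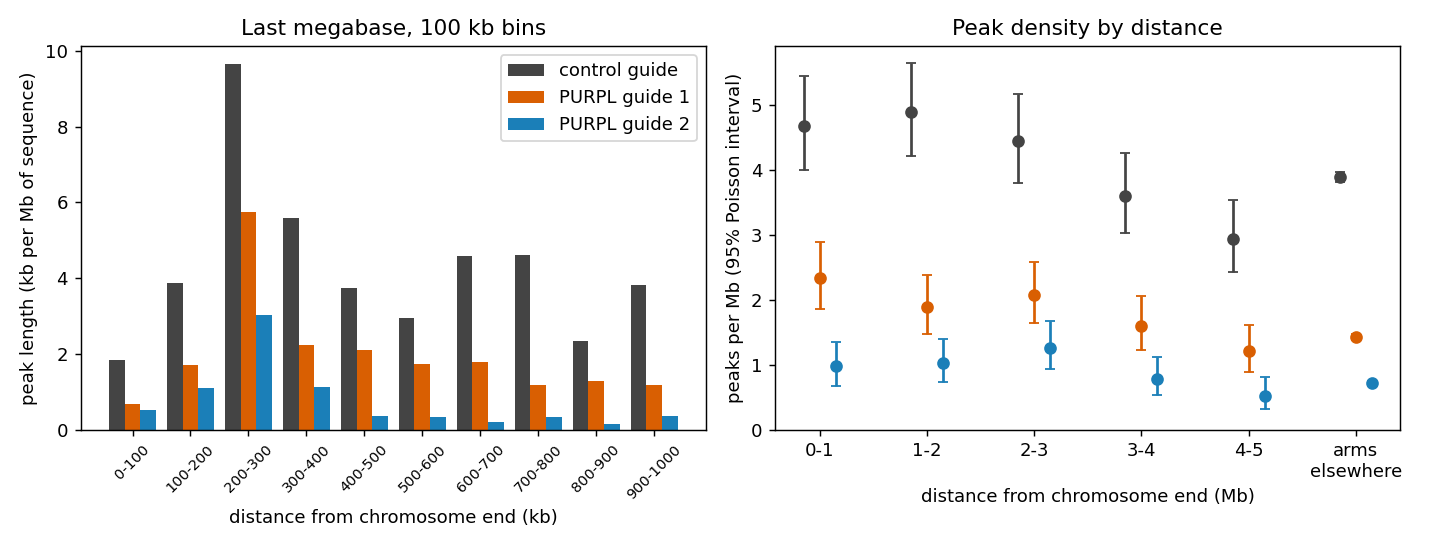
Left, kb under peaks per Mb of kept sequence in 100 kb bins of distance from the chromosome end, 1 bar per cell line. Right, peaks per Mb with exact 95% Poisson intervals in successive megabases from the end and in the chromosome arms elsewhere. The bin from 200 to 300 kb is the highest in all 3 lists through a domain at 15q and a domain at 8p, and the densities of the first 3 megabases have overlapping intervals within each list.

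Peak density in the last megabase was 4.68 per Mb in the control (4.00 to 5.45), 2.34 with guide 1 (1.87 to 2.90) and 0.976 with guide 2 (0.680 to 1.36). The next megabase of the same ends had 4.89 (4.22 to 5.65), 1.89 (1.48 to 2.39) and 1.03 (0.730 to 1.40), so the intervals overlap in every list. The chromosome arms elsewhere, without gene-free stretches of 1 Mb or more that mostly span centromeres, had 3.89, 1.43 and 0.718 peaks per Mb. The last megabase is denser in genes, with 18.6 protein-coding genes per Mb against 15.6 in the next and 6.90 in the arms. The share of control length left was 29.1% and 11.6% in the next megabase and 32.2% and 13.1% in the arms, against 45.5% and 17.1% in the last megabase. Outside the 15q domain and the 18p domain described below, 39.9% and 9.68% was left in the last megabase. The guide 1 share thus stood above that of the arms with and without these domains, and the guide 2 share stood above it only with them. These 2 domains were left out because all 3 lists keep them, which lowers the share left. No such domains were left out of the arms, so the shares without the 2 domains are not like for like with the arms.

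Most control peaks at the ends had no counterpart in the guides. A control peak counted as shared when it overlapped a guide peak by at least 1 bp. With guide 1 this held for 44 of the 168 (26.2%, 20.1 to 33.3), where the background over all autosomal control peaks was 43.4%. With guide 2 it held for 19 (11.3%, 7.36 to 16.99, background 36.7%). Neither guide overlapped 116 (69.0%, 61.7 to 75.5, background 49.4%). The autosomal backgrounds include the centromeric stretches, and in the arms alone the shares were 17.5% (16.8 to 18.2), 8.59% (8.06 to 9.14) and 79.2% (78.4 to 80.0). The guide 1 interval lies above that of the arms and the guide 2 intervals overlap. Neighbouring peaks are not independent, and no test of these differences was made.

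Shared control peaks were wider and had higher scores. Scores are values the authors gave to the peaks and serve to rank peaks within a list. Control peaks that overlapped guide 1 had a median width of 951 bp and a median score of 21, against 516 bp and 17 for the rest. Those that overlapped guide 2 had 1275 bp and 23, against 563 bp and 17. The 1 bp rule favours wide peaks. The arms showed the same order, with 1361 bp and 20 against 593 bp and 16 for guide 1. For guide 2 they had 1663 bp and 22, against 631.5 bp and 16. Among control peaks with a score above 17, the member median, 38.6% overlapped guide 1 (28.8 to 49.3) and 26.4% did so in the arms (25.2 to 27.7). At or below that score the shares were 14.1% (8.26 to 23.1) and 10.2% (9.49 to 11.1). For guide 2 the shares above 17 were 18.1% (11.3 to 27.7) and, in the arms, 14.3% (13.3 to 15.3). At or below 17 they were 4.71% and 3.99%.

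Guide peaks at the ends lay off the control peaks in many cases. Among the 84 guide 1 peaks, 39 were off every control peak (46.4%, 36.2 to 57.0, background 20.6%), and of the 35 guide 2 peaks, 16 (45.7%, 30.5 to 61.8, background 16.6%). In the arms these shares were 44.6% and 43.1%, inside both intervals. The guide 1 peaks off the control had a median width of 426 bp, against 728 bp for the rest. The guides had few places in common, as guide 2 peaks touched 10 of the 84 from guide 1 (11.9%, 6.60 to 20.5, background 55.2%) and guide 1 peaks touched 10 of the 35 from guide 2 (28.6%, 16.3 to 45.1, background 69.3%). In the arms the shares were 17.9% and 39.0%.

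**Figure D3:**
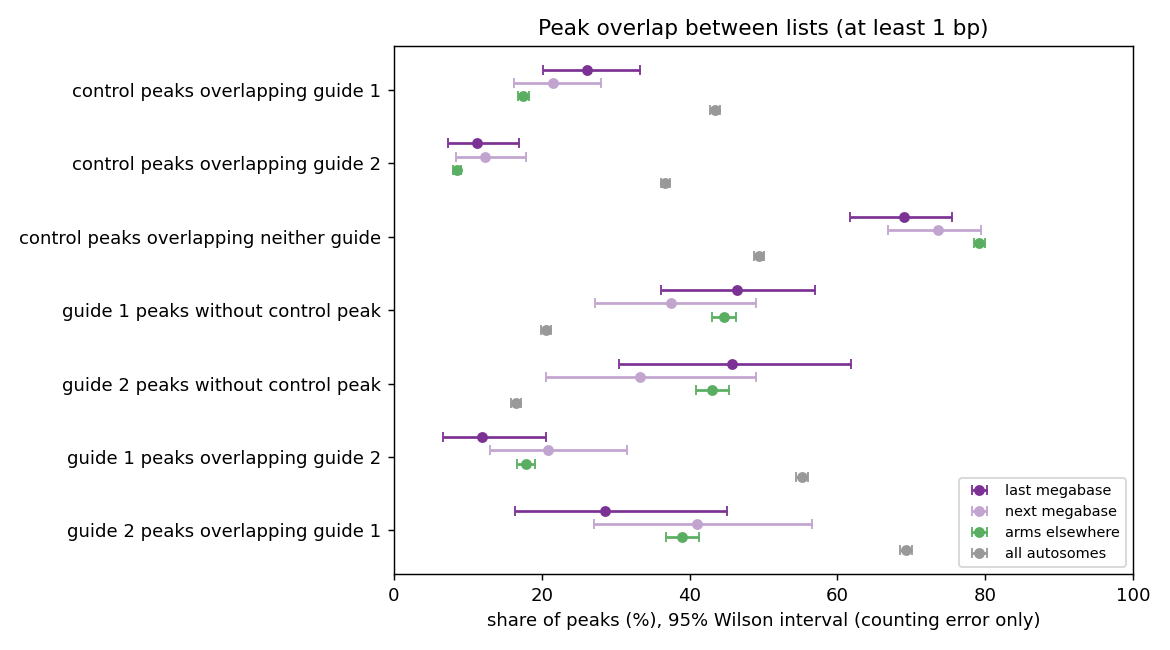
Share of peaks in percent (horizontal axis) with 95% Wilson intervals for 7 kinds of overlap between the lists (vertical axis), in the last megabase, the next megabase, the arms elsewhere and all autosomes. The last megabase lies far from the autosomal value in each row and near the arms in most rows.

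Member peaks of the 3 lists were joined into domains where they lay 5 kb or less apart, which gave 191 domains. Of the 150 with a control peak, 94 had no guide peak (62.7%, 54.7 to 70.0, background 67.5%) and 11 had peaks of both guides (7.33%, 4.14 to 12.7, background 13.6%). In the arms these shares were 74.6% and 6.29%, the first above the interval at the ends and the second inside it. The 94 had a median control coverage of 516 bp and the 11 had 1622 bp. Coverage was shorter with both guides in 130 of the 150, which include the 94 without a guide peak. It was longer with guide 1 in 19 and longer with guide 2 in 2. No background was computed for these 3 counts, so they do not set the chromosome ends apart. In 6 domains some bases were under peaks of all 3 lists, 13.96 kb in total.

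The longest of these was at 15q, chr15:101751816-101764355, 227 kb from the end of the chromosome. No annotated gene lies in it, and the nearest protein-coding gene, the threonyl-tRNA synthetase gene TARS3, lies 27.3 kb away. Control peaks covered 11434 bp of it, guide 1 peaks 10550 bp and guide 2 peaks 9440 bp, with 8334 bp common to all. The guide lengths were 92.3% and 82.6% of the control length, and 82.6% and 72.9% of the control bases were also under guide 1 and guide 2 peaks. Its highest scores were 66, 131 and 66, above 92.7%, 97.3% and 93.1% of the peaks of the respective list by mean rank.

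At 18p a domain at chr18:106777-110769 held the highest-scoring member peak of each list. It reaches into ROCK1P1, a pseudogene of the kinase gene ROCK1, and lies within the long non-coding RNA gene LOC112268408. The lengths were 3579, 3993 and 3363 bp, with scores of 518, 461 and 249 at percentiles 99.7, 99.6 and 99.2 of the lists. The guides had 112% and 94.0% of its control length. Together with 15q it held 9.76% of the control member length, 20.8% of that of guide 1 and 48.8% of that of guide 2.

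Of the other 4 domains common to all lists, the terminal one at 5p is described above. At 16q, chr16:89994765-89996285, in the pseudogene AFG3L1P, the lengths were 1521, 1110 and 470 bp. At 1q, chr1:248408144-248408953, 0.123 kb from the olfactory receptor gene OR2T1, they were 476, 810 and 390 bp. The last, at chr18:79891901-79898177, lies in KCNG2 on 18q and shared 125 bp.

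Elsewhere the longest control domains were much shorter in the guides. The domain at chr8:236078-250603 in ZNF596 on 8p spanned 9886 bp of control peaks, 5353 bp of guide 1 peaks and 248 bp of guide 2 peaks. At chr18:80015868-80023500 in TXNL4A the lengths were 5838, 1781 and 395 bp. At chr21:46584817-46591997, 0.945 kb from the gene DIP2A, they were 4811, 622 and 0 bp. The KCNG2 domain had 4102, 1958 and 596 bp. A domain at chr2:241585467-241590349 in THAP4 had 3247, 719 and 0 bp. Those at chr18:79730229-79733007 in CTDP1 and chr18:79929222-79931901 in SLC66A2 had 2779 and 2507 bp in the control, 1853 and 597 bp with guide 1 and 0 with guide 2. At chr8:144561097-144568192 in ARHGAP39 the lengths were 2762, 921 and 0 bp. All 8 domains of this group were shorter with guide 1 than in the control, and shorter still with guide 2. The choice by long control coverage favours this order. The 2 domains of long control coverage that both guides largely kept are described above and are not in this group. No background was computed for this group, so it does not set the chromosome ends apart.

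**Figure D4:**
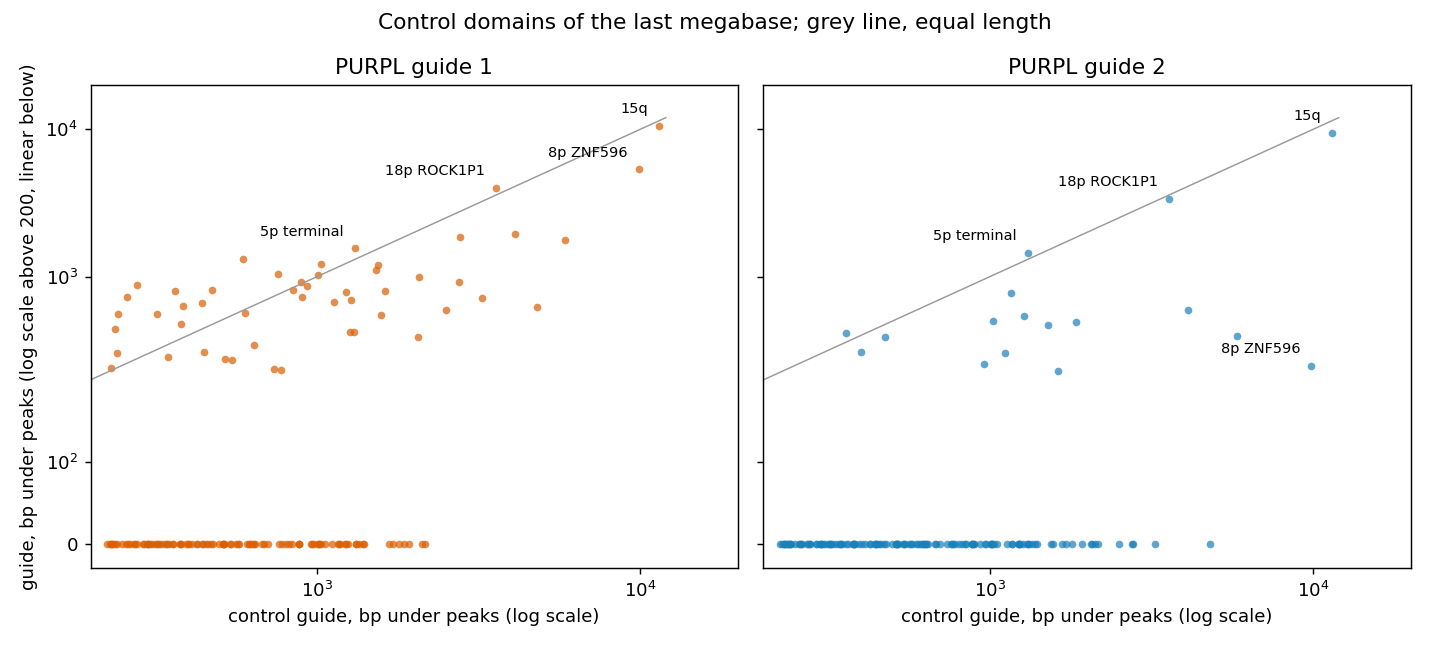
Bases under peaks in each of the 150 control domains, control on the horizontal axis and guide on the vertical axis (log scales, linear below 200 bp), with guide 1 left and guide 2 right. The 15q, 18p and terminal 5p domains lie near the grey line of equal length in both panels, and most other domains lie at 0.

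In 3 domains both guides had a peak and the control had none (background 0.576% of all autosomal domains, against 1.57% here, 0.536 to 4.52). The longest was at chr8:304216-305033 on 8p, in the long non-coding RNA gene LOC124902052, with 580 bp and 614 bp. At chr20:64087142-64087678 in OPRL1, the nociceptin receptor gene, the guides had 495 and 291 bp, and the guide 1 peak scored above 93.0% of its list by mean rank. At chr6:519116-519558 in EXOC2, an exocyst subunit gene, they had 259 and 394 bp.

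Peaks of high score were also found in 1 list alone. The control list's second highest member peak, at chr7:159088935-159089476 in VIPR2 on 7q, the receptor gene of vasoactive intestinal peptide, was 542 bp wide with a score of 128, at percentile 97.6, and no guide peak overlapped it. The next control peak by score and the guide 2 peaks that follow 18p belong to the 15q domain. In guide 1 a 15q peak came after 18p, followed by the 1q peak beside OR2T1, with a score of 77.

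Of the 168 control peaks 94 lay in a protein-coding gene (56.0%, 48.4 to 63.2, background 20.8%), of the 84 guide 1 peaks 56 (66.7%, 56.1 to 75.8, background 14.4%) and of the 35 guide 2 peaks 17 (48.6%, 33.0 to 64.4, background 9.13%). The bodies of these genes make up 53.0% of the windows and 42.1% of the autosomes, so the control share is close to the share of sequence. In the arms the shares of peaks were 42.5%, 48.2% and 48.6%, so the guide 2 share did not stand apart from the arms. Outside any annotated gene were 60 control peaks, 23 guide 1 peaks and 10 guide 2 peaks.

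Fewer protein-coding genes of the chromosome ends were marked with the PURPL guides. A gene was counted to the windows by its midpoint and called marked when any peak overlapped its body. Of 666 genes, 70 were marked in the control (10.5%, 8.40 to 13.1, background 13.5%), 43 with guide 1 (6.46%, 4.83 to 8.58, background 6.78%) and 16 with guide 2 (2.402%, 1.48 to 3.87, background 3.86%). The control share and its interval lay below the background. The guide 1 share lay near its background, and the guide 2 share lay lower with an interval that just reached its background. Window genes are short, with a median of 13.3 kb against 25.4 kb in the arms. Among genes of at least 50 kb, 51 of 116 were marked in the control (44.0%, 35.3 to 53.0), against 31.6% in the arms (30.4 to 32.8). For guide 1 the shares of such genes were 27.6% (20.3 to 36.3) and 14.01% (13.1 to 14.9), and for guide 2 they were 11.2% (6.67 to 18.2) and 7.23% (6.60 to 7.92).

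Of the 70 control-marked genes, 58 were shorter with both guides (82.9%, 72.4 to 89.9, background 92.7%) and 36 had no peak in either guide (51.4%, 40.0 to 62.8, background 52.4%). Coverage was longer with guide 1 in 11 and longer with guide 2 in 1, for which no background was computed. Summed per gene over all 666, peak coverage was 92.6 kb for sgCtrl, 39.4 kb for guide 1 and 6.87 kb for guide 2. Bases where genes overlap count once for each gene. The guide totals were 42.5% and 7.41% of the control total, against 36.2% and 13.99% over all autosomal coding genes. In the arms these shares were 33.7% and 12.7%. The guide 1 share at the ends thus stood above both backgrounds, and the guide 2 share stood below both. No intervals were computed for these shares. The guide totals include genes without a control peak, so they are not the share left in the control-marked genes. Peaks in all 3 lists were found in 9 of the 70 genes, against 434 of 2587 control-marked coding genes over all autosomes. KCNG2 alone had bases common to all lists.

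The 10 genes with the longest control coverage came from different functions, and 4 of them lie on 18q. ZNF596, a zinc finger gene of 8p, was covered over 8575 bp in the control, 4559 bp for guide 1 and 248 bp for guide 2. On 18q, TXNL4A, a component gene of the spliceosome, had 5838, 1781 and 395 bp, and KCNG2, a potassium channel subunit gene, had 4462, 1958 and 1012 bp. CTDP1, the phosphatase gene of the RNA polymerase II tail, had 2779, 1853 and 0 bp there, and SLC66A2 had 2507, 597 and 0 bp. THAP4 on 2q had 3247, 719 and 0 bp. All of these were shorter with guide 1 and shorter again with guide 2, which the choice by long control coverage favours.

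On 17q, QTGAL, a gene of transfer RNA modification, overlaps TBCD, a tubulin-folding cofactor gene. They had 2952 and 2892 bp in the control, 1121 and 1723 bp with guide 1 and 0 with guide 2. A guide 1 peak of 728 bp and most of a control peak of 898 bp count for both genes. PRKAR1B on 7p, a regulatory subunit gene of protein kinase A, had 2828, 696 and 0 bp. LOC124900586 on 16p had 2756, 770 and 0 bp. In 7 of the 10 genes guide 2 had no peak, and guide 1 had a peak in every one of the 10.

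A peak in a guide and none in the control was found for 13 genes, 7 with guide 1 alone, 3 with guide 2 alone and 3 with both (1.95% of the 666, background 1.81%). SHC2, a signalling adaptor gene of 19p, had 1851 bp with guide 1. AHRR, which encodes the repressor of the aryl hydrocarbon receptor on 5p, was covered over 219 bp by guide 1 and 1173 bp by guide 2. The overlapping genes TYMS, which encodes thymidylate synthase, and ENOSF1 on 18p shared a guide 1 peak and had 1091 and 636 bp. TMEM255B on 13q had 1065 bp with guide 1.

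**Figure D5:**
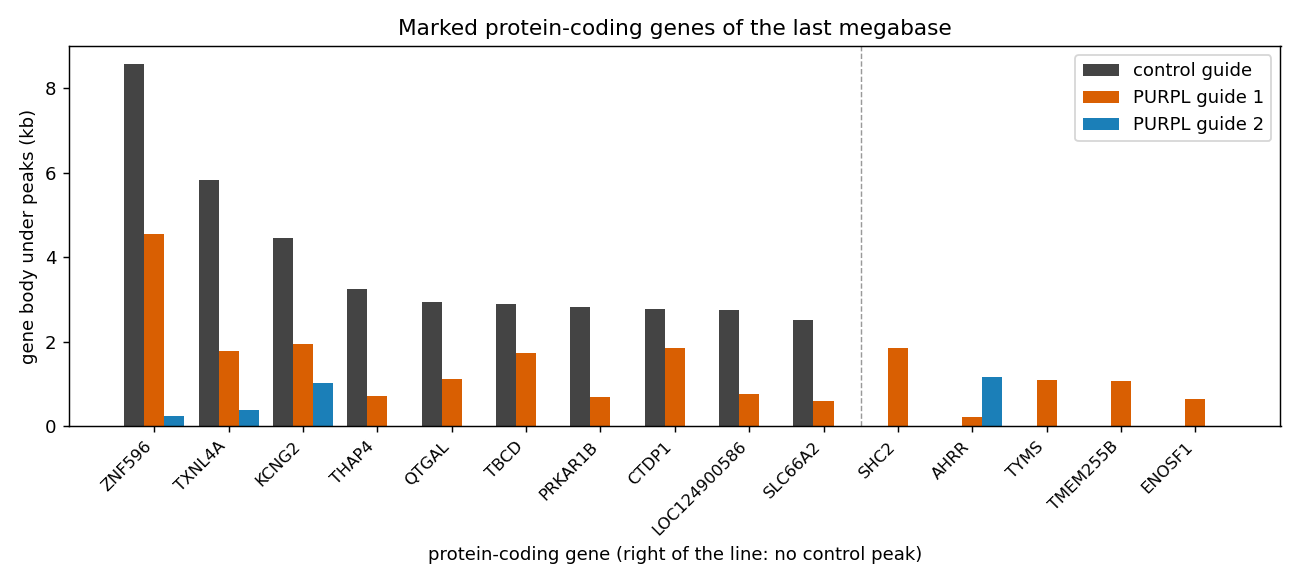
Gene body length under peaks in kb for the 10 protein-coding genes with the longest control coverage (left of the dashed line) and the 5 with the longest guide coverage and no control peak (right), 1 bar per cell line. The guide 1 bar is below the control bar in each of the 10, which their choice by control coverage favours, and guide 2 has a bar in 3 of them.

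Zinc finger genes are the class best known for H3K9me3 over their bodies. Of 10 in the windows the control marked 2, guide 1 marked 1 and guide 2 marked 1, over 9.96, 4.56 and 0.248 kb. For this list and the other lists of protein-coding genes below, the shares of all autosomal coding genes marked were 13.5%, 6.78% and 3.86%. Beside ZNF596 this was ZFP62 on 5q, with 1386 bp in the control alone. The families repeated across subtelomeres, such as the WASH, DDX11L and FAM138 genes, showed 1 covered member among 80 in the control list, FAM157C on 16q with 264 bp, and 0 with either guide. These 80 entries are not all protein-coding and are short, with a median of 2.54 kb. Of the 1144 annotated entries of the windows that are not protein-coding, 1.75%, 0.962% and 0.874% were marked in the control, guide 1 and guide 2. Reads of repeated segments may fit several ends, and their placement is not stated in the labels.

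Olfactory receptor genes, which are mostly silent outside the nose, showed 1 covered gene among 41 in the control list and 0 with either guide. This was OR2L13 on 1q, with 301 bp. The 41 genes are short, with a median of 6.25 kb against 24.5 kb for all autosomal coding genes, and OR2L13 spans 164 kb. Of 119 annotated immunoglobulin heavy chain entries, 1 was marked, the locus entry IGH, whose 354 bp in the control lie outside the last megabase. The median length of these entries is 0.438 kb, and the shares of entries that are not protein-coding, given above, apply to them. The beta-defensin genes (6), the alpha globin genes (5) and the interferon-induced transmembrane genes (4) had 0 marked members in all 3 lists. The same was true of BET1L and FRG1, 2 genes studied for silencing by nearby telomeres.

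Of 8 chromatin regulator genes the control marked 3, guide 1 marked 1 and guide 2 marked 0, over 3.13, 0.570 and 0 kb (backgrounds 13.5%, 6.78% and 3.86%). PRMT2, an arginine methyltransferase gene of 21q, had 1931, 0 and 0 bp. EHMT1 on 9q, which encodes the H3K9 methyltransferase GLP, had 602, 570 and 0 bp. KDM5A on 12p, an H3K4 demethylase gene, had 599, 0 and 0 bp. Each of the 3 was shorter with guide 1 and with guide 2 than in the control. Over all autosomes 92.7% of control-marked coding genes were shorter with both guides, so this does not set the 3 apart.

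Among 8 neural adhesion and synapse genes, the control list marked 2, the guide 1 list 2 and the guide 2 list 1 (backgrounds 13.5%, 6.78% and 3.86%). VIPR2 had 542, 0 and 0 bp, and CHL1, a neural cell adhesion gene of 3p, had 244, 561 and 0 bp. OPRL1 was marked in both guides without the control, as given above. Among 12 housekeeping genes the numbers were 3, 2 and 1, against the same backgrounds. Beside TXNL4A these were the respiratory chain gene SDHA with 379, 0 and 0 bp and the exocyst gene EXOC3 with 238, 440 and 0 bp, both on 5p.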

How the data were processed

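H3K9me3 was profiled by chromatin immunoprecipitation and sequencing in 3 BJ lines, with 6 samples (3 H3K9me3, 3 input). Per the submitters' processing notes, MACS2 2.2.9.1, Bowtie2 2.4.2, deepTools 3.5.1 and GATK were used with hg38 and GRCh38.p13. Their settings are not stated in the labels. The deposited lists, 1 per line, give each peak's start and end in bp and a score set by the authors, a whole number of at least 10 on an unnamed scale. Guide names inside the lists differ from those in the titles, and the titles were followed.

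Member peaks were found by midpoint. Peaks were shared from 1 bp of overlap and joined into domains at 5 kb or less. Genes came from RefSeq GRCh38.p14, whose chromosomes share coordinates with GRCh38.p13. Since depth is unknown, no value is corrected for it, and no test was run. Named are the 10 genes and domains of longest control coverage, the 5 of longest common coverage, up to 5 genes and 3 domains of guides alone, the 3 highest-scoring peaks per list, and up to 3 covered members per gene list. The members and lists were chosen with earlier results of these data known. The overlap functions were tested on simulated data. Tables were handled with pandas 2.3.3 and numpy 2.4.6 in Python 3.11.15, intervals with scipy 1.17.1 and plots with matplotlib 3.10.9.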

Additional observations from a re-analysis of the deposited data

Results flagged for a closer look

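At 5 ends the covered length was longer than in the control with guide 1 and shorter with guide 2. The difference between the guides was not tested, since each value comes from 1 library. At 3q the lengths were 1186 bp in the control, 2588 bp with guide 1 (1402 bp longer) and 242 bp with guide 2. At 20q they were 1622, 2149 (527 bp longer) and 519 bp. The end 9p had 279, 885 (606 bp longer) and 0 bp, and 12q had 895, 920 (25 bp longer) and 0 bp. At 18p, where the ROCK1P1 domain lies, they were 5545, 6040 (495 bp longer) and 3363 bp.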

How the results depend on the processing

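For 10 results, 65 values under 8 other settings were computed, and 49 stayed within the interval of the reported share or within 1.5 times the reported length share or gene count. The setting without 15q and 18p was chosen after seeing the data. With at least 50% of the peak covered, 16.1% of the control peaks overlapped guide 1, 3.57% guide 2 and 82.7% neither, and 61.9% of the guide 1 peaks lay off the control. With only peaks whose score reached 22, the median of the pooled lists, guide 2 had 28.8% of the control length, 76.1% of the control peaks overlapped neither guide, and 25, 14 and 5 genes were marked in the control, guide 1 and guide 2. With a window of 500 kb, 28, 15 and 6 genes were marked, and with 2 Mb 125, 76 and 39, as the number of genes changes with the window. Without 15q and 18p, guide 2 had 9.83% of the control length. Leaving out 18q, joining peaks within 5 kb and adding 5 kb to genes moved no result past these limits. In the settings where these were computed, both guides had less covered length and fewer marked genes than the control. No paired analysis was possible because each cell line has 1 H3K9me3 library. Depth is unknown, so a peak missing from a guide list may have been below what that library could show.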

Other observations

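In some genes the covered length with guide 1 was similar to that in the control or longer, and that with guide 2 was shorter. They were chosen after their values were seen, and the lengths need not cover the same bases. DYNC2I1 on 7q, a gene of the ciliary dynein, was covered over 973 bp for sgCtrl, 1792 bp for guide 1 and 0 for guide 2. FN3K on 17q, which encodes a kinase that removes sugar adducts from proteins, had 1011, 1028 and 0 bp. ZGPAT on 20q, a zinc finger repressor gene, had 1622, 1654 and 228 bp. RASA3 on 13q, a Ras GTPase-activating protein gene, had 1028, 1226 and 504 bp, and PCBP3 on 21q, an RNA-binding protein gene, 1989, 1782 and 538 bp. Other genes had no peak in either guide, among them the mitochondrial GTPase gene MTG1 on 10q with 2156 bp in the control, the tubulin tyrosine ligase-like gene TTLL8 on 22q with 1809 bp and PLEKHG4B on 5p with 1600 bp.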
